A study of Xenopus tropicalis with 20 samples.

Results

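The retinoid and carotenoid genes described here are dhrs3, aldh1a1, bco2, ttr and rbp4. They are 5 of the 20372 named genes in the per-library expression tables and were found by gene symbol. The samples were livers of adult female western clawed frogs, Xenopus tropicalis, with 20 RNA libraries in 4 groups of 5. F1 control and F2 control are labelled only as controls of their generation. F1 mixture and F2 mixture were daughters and granddaughters of founders (F0) raised from tadpole to maturity in water with triclosan, an antimicrobial compound, and benzo[a]pyrene, a hydrocarbon of incomplete combustion, at 50 ng per litre. The F1 and F2 females of all 4 groups were themselves not exposed. The labels give no age and do not name the clutch behind any library, so the p-values measure the spread between these samples. The controls' sequence data come from an earlier deposit, and any difference in when control and mixture libraries were made cannot be told apart from the groups.

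Vitamin A travels in blood as retinol on retinol-binding protein (rbp4), and in mammals that complex binds transthyretin (ttr), which also carries thyroid hormone. The liver makes both carriers and is the main store of vitamin A. Inside cells retinol is oxidised to retinal and retinal to retinoic acid, the ligand of the retinoic acid receptors. In mammals the last step is carried out by aldehyde dehydrogenases such as aldh1a1, while dhrs3 reduces retinal back to retinol. Carotenoids are a dietary source of retinal through central cleavage, whereas bco2 cleaves them off-centre at the inner mitochondrial membrane.

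Expression was measured as FPKM, fragments normalised for transcript length and for the number of mapped fragments, and each library was divided by a scaling factor (0.717 to 1.26). Read as counting error alone, the deposited limits of the FPKM values corresponded to 7896246 to 16704801 fragments per library, which is not a measured depth. Between 8466 and 10637 genes per library reached an FPKM of 1. All 5 genes were marked as sound in all 20 libraries and passed the filter on low values. The half-width of their deposited limits was 3.04% to 3.78% of the value for rbp4, 2.06% to 6.61% for aldh1a1, 4.46% to 18.6% for ttr, 5.16% to 11.9% for bco2 and 7.67% to 24.6% for dhrs3. Hepatocyte markers were abundant in every library. Their summed level was 13204 to 19027 in F2 control and 5405 to 19222 in F2 mixture, with albumin left out because it was not sound in some libraries. None of the 19 summed markers was at 0 in all libraries. Libraries that stood apart by limma's array weights were F2 mixture 2 (weight 0.288), F1 mixture 1 (0.447), F2 control 1 (0.533), F1 mixture 8 (0.555) and F1 control 3 (0.566).

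In F2 livers, dhrs3, aldh1a1 and bco2 fell in the mixture line, to mean levels 0.349, 0.358 and 0.473 times those of F2 control, while ttr and rbp4 did not pass the test. These are 3 genes called of 5. In this comparison limma called 25.7% of the 10228 genes tested in either direction, 14.5% lower and 11.3% higher. The 5 genes were chosen with earlier results of these data known, so the count beside that share is a description and not a test. In F1 livers 2 of the 5 genes (ttr and rbp4) and 1306 of all 10228 genes had an unadjusted p under 0.05 (limma). After adjustment limma called 0 of the 5 genes and 0% of all genes there. That F1 count moved with the weight given to the libraries. With array weights limma called 1129 genes in F1, ttr among them, and without the 5 low-weight libraries 2459, among them ttr, rbp4, aldh1a1 and bco2. Leaving out 1 library gave at most 24 (F1 mixture library 8; 21 without F1 control library 3 and 6 without F1 mixture library 1). A gene was called at an adjusted p under 0.05 (limma, Benjamini-Hochberg over all 10228 genes). Over those genes the split of F2 calls moved with the scaling, from 1151 higher and 1479 lower to 624 higher and 1337 lower without scaling and 1453 higher and 1311 lower after quantile normalization. Each of the 3 lower calls held in all 20 alternatives run for it. In a bulk sample, fewer cells of a type and less RNA per cell cannot be told apart.

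Among the carriers, rbp4 was the most abundant of the 5 genes, ranked between place 23 and place 97 of all genes in every library (chromosome 7, positions 35996040 to 36005264 in assembly UCB_Xtro_10.0). Its scaled FPKM in F1 control libraries 1, 2, 3, 4 and 6 was 4606, 1214, 5211, 2949.6 and 1142. In F1 mixture libraries 1, 4, 8, 9 and 13 it was 3489, 5019, 3771, 5674 and 10219.9. F2 control libraries 1 to 5 held 4699.8, 4267, 8238, 2434 and 4342, and F2 mixture libraries 1 to 5 held 3653, 1760.5, 4243, 2585 and 4441. F1 mixture libraries reached higher values than F1 control, but the groups overlapped, and in F2 the mixture libraries lay within the lower part of the control range or below it. Mean levels ± SD (n = 5) ranked in the order F1 mixture (5635 ± 2715), F2 control (4796 ± 2117), F2 mixture (3336 ± 1139) and F1 control (3025 ± 1878), and each neighbour in the order of the means overlapped the next.

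On the log2(scaled FPKM + 1) scale, rbp4 in mixture against control differed by 1.06 ± 0.45 (SE; 95% interval 0.12 to 1.99; limma adjusted p = 0.37) in F1. The F2 difference was -0.50 ± 0.45 (95% interval -1.43 to 0.44; limma adjusted p = 0.438). The F2 effect minus the F1 effect was -1.55 ± 0.63 (limma adjusted p = 0.0876), and without F1 control library 3 it was -1.82 (limma adjusted p = 0.0394). Leaving out the 5 low-weight libraries together gave 1.67 in F1 (limma adjusted p = 0.0259) and -1.93 for the difference (limma adjusted p = 0.0323). That set was chosen after seeing the data. Over 20 alternatives the rbp4 value in F1 ran from 0.135 to 1.67, and 1 of them gained a call. With the replicate block it was 0.183. Over 29 alternatives the difference ran from -1.93 to -0.53 (limma adjusted p up to 0.559), and 2 of them gained a call. The authors' deposited table gave log2 fold changes of 0.93 in F1 and -0.45 in F2 for rbp4 and marked neither as significant. In the authors' deposited table that locus was joined with the neighbouring gene ffar4 and spanned positions 35980063 to 36005264. In the per-library tables ffar4 (35980063 to 35996613) overlapped the first bases of rbp4 and was listed at 0 in all 20 libraries.

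The second carrier gene, ttr (chromosome 6, 111685690 to 111690537), varied most between libraries of 1 group. Its scaled FPKM was 15.1, 21.996, 92.5, 16.1 and 12.3 in F1 control libraries 1, 2, 3, 4 and 6, and 42.0, 60.1, 129, 106 and 113 in F1 mixture libraries 1, 4, 8, 9 and 13. F2 control libraries 1 to 5 held 20.4, 25.4, 43.3, 18.7 and 197, and F2 mixture libraries 1 to 5 held 262, 35.0, 148, 37.3 and 132. F1 control library 3 and F2 control library 5 stood far above the other 4 libraries of their groups. The mean was highest in F2 mixture (123 ± 93.8, SD, n = 5), then in F1 mixture (90.1 ± 37.2), F2 control (60.9 ± 76.5) and F1 control (31.6 ± 34.2), with each group overlapping the next.

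The mixture effect on ttr was 1.81 ± 0.66 in F1 (95% interval 0.44 to 3.19; limma adjusted p = 0.32, unadjusted p = 0.0124). The exact permutation test over all splits of the 10 F1 libraries gave p = 0.0238, or 0.068 adjusted over the 20 tests of single genes. In F2 it was 1.24 ± 0.66 (95% interval -0.13 to 2.62; limma adjusted p = 0.173), with the mixture library higher in 4 of 5 same-numbered pairs. No label gives those pairs, and a pairing of numbers 3 to 5 was not shown. Without F2 control library 5 the F2 value was 1.82 (limma adjusted p = 0.0382). With array weights the F1 value was 2.13 (limma adjusted p = 0.0429), and without the 5 low-weight libraries it was 2.41 (limma adjusted p = 0.0229). The authors' deposited table marked ttr as significant in F1 (log2 fold change 1.49, q = 0.00863). In the authors' deposited table the F2 entry had a log2 fold change of 0.997 and q = 0.050007 and was not marked. The effects in the 2 generations differed by -0.57 ± 0.93 (limma adjusted p = 0.694), and that sign turned without F2 control library 5 (0.0097). The ratio of rbp4 to ttr transcript level per length had a median of 93.0 in F1 control and 83.2 in F1 mixture, and of 168 in F2 control and 33.6 in F2 mixture, and the F2 ranges overlapped (22.1 to 229.9 in control, 13.9 to 69.3 in mixture).

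**Figure D1:**
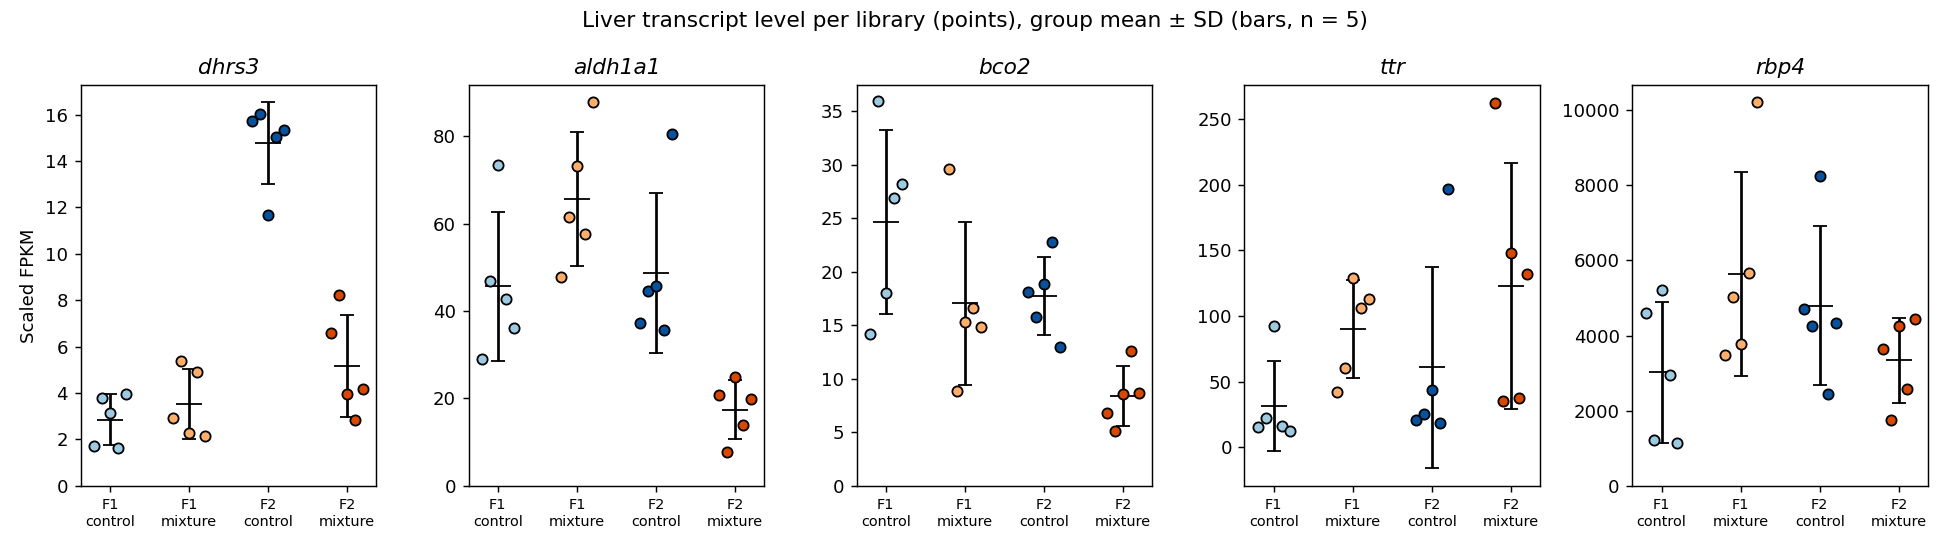
Scaled FPKM (vertical axis, linear, a separate scale for each gene) of the 5 genes in each library (points) by group (horizontal axis), with group means ± SD (bars, n = 5). The 5 F2 control libraries of dhrs3 (11.7 to 16.04) sit above all other libraries, the 5 F2 mixture libraries of aldh1a1 (7.71 to 25.0) sit below all others, and single control libraries of ttr stand far above their groups.

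The carotenoid cleavage gene bco2 (chromosome 7, 85113260 to 85145579) had its lowest levels in F2 mixture. F1 control libraries 1, 2, 3, 4 and 6 held 14.2, 35.9, 17.97, 26.9 and 28.1, and F1 mixture libraries 1, 4, 8, 9 and 13 held 29.6, 8.87, 15.3, 16.6 and 14.8. In F2 control libraries 1 to 5 the scaled FPKM was 18.1, 15.8, 18.9, 22.8 and 12.96, and in F2 mixture libraries 1 to 5 it was 6.84, 5.12, 8.60, 12.6 and 8.70. Every F2 mixture library lay below every F2 control library, by a narrow gap between mixture library 4 and control library 5. Of the 10228 genes tested, 7.38% had F2 mixture wholly below F2 control in this way. The F1 groups overlapped. The mean was highest in F1 control (24.6 ± 8.62, SD, n = 5), close in F2 control (17.7 ± 3.65) and F1 mixture (17.0 ± 7.64), and lowest in F2 mixture (8.37 ± 2.78), where 4 of the 5 libraries lay below the other 15.

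In F2, bco2 fell by 1.02 ± 0.28 on the log2 scale (95% interval -1.61 to -0.43; limma adjusted p = 0.0123), and the exact permutation test gave p = 0.00794, the smallest that this test can give (0.0317 adjusted over the 20 tests). It was lower in 5 of 5 same-numbered F2 pairs, as any pairing of these non-overlapping groups would give. The authors' deposited table gave a log2 fold change of -0.90 (q = 0.0204) and marked it as significant. The F1 effect was -0.53 ± 0.28 (limma adjusted p = 0.428), and the difference between the generations was -0.49 ± 0.40 (limma adjusted p = 0.395), so a difference in the bco2 effect between F1 and F2 was not shown. The difference was 0.024 without the 5 low-weight libraries, and the F1 effect was then -0.89 (limma adjusted p = 0.0431). A second carotenoid oxygenase-like gene on the same chromosome, bco2l (85068195 to 85094544), had group means of 0.42 to 0.65 FPKM and was under the level filter. The central-cleavage enzyme gene bco1 was listed at 0 in 12 of the 20 libraries and reached at most 0.037 FPKM in the others.

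Of the enzymes acting on retinal, dhrs3 (chromosome 7, 95727920 to 95744275) was set apart by its F2 control level. Its scaled FPKM was 1.73, 3.77, 3.12, 1.63 and 3.97 in F1 control libraries 1, 2, 3, 4 and 6, and 2.92, 5.36, 2.28, 4.89 and 2.17 in F1 mixture libraries 1, 4, 8, 9 and 13. F2 control libraries 1 to 5 held 15.7, 16.04, 11.7, 15.0 and 15.3, while F2 mixture libraries 1 to 5 held 6.60, 8.21, 3.94, 2.81 and 4.16. All 5 F2 control libraries exceeded the highest of the other 15 (8.21), and the other 3 groups overlapped each other. The F2 control libraries of dhrs7 and aadac, described below, also lay above all others. How many of all genes had that pattern was not counted. F2 mixture lay wholly below F2 control for 7.38% of all genes. The dhrs3 mean was 14.8 ± 1.77 in F2 control (SD, n = 5), against 5.15 ± 2.20 in F2 mixture, 3.52 ± 1.497 in F1 mixture and 2.85 ± 1.11 in F1 control.

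In F2, dhrs3 fell by 1.42 ± 0.25 on the log2 scale, 2.68-fold, in mixture against control (95% interval -1.95 to -0.89; limma adjusted p = 0.000671; exact permutation p = 0.00794). It was lower in 5 of 5 same-numbered pairs, as any pairing of these non-overlapping groups would give. The pair differences were -2.07 to -0.89. The F1 effect was 0.22 ± 0.25 (limma adjusted p = 0.714). The difference between the effects, -1.65 ± 0.36, passed the test (limma adjusted p = 0.00464). The comparison of generations shares these libraries and is given beside it. F2 control exceeded F1 control by 2.08 ± 0.25 (limma adjusted p = 3.93e-06), and F2 mixture against F1 mixture was 0.43 ± 0.25 (limma adjusted p = 0.252). Of the 5 genes dhrs3 was the 1 called between the control generations (rbp4, at 0.83 ± 0.45, was called at 1.09 only without F1 control library 3), a comparison in which 55.9% of all genes were called and 20.3% had F2 control wholly above F1 control. The authors' deposited table gave -1.39 in F2 (q = 0.000955) and 0.21 in F1 for dhrs3, marking the F2 entry.

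The retinal dehydrogenase gene aldh1a1 (chromosome 1, 130668376 to 130700464) was set apart by its F2 mixture level instead. F1 control libraries 1, 2, 3, 4 and 6 held 29.0, 46.8, 73.5, 42.8 and 36.1, and F1 mixture libraries 1, 4, 8, 9 and 13 held 47.8, 61.6, 73.2, 57.7 and 87.7. In F2 control libraries 1 to 5 the scaled FPKM was 37.2, 44.5, 45.7, 35.7 and 80.6, and in F2 mixture libraries 1 to 5 it was 20.8, 7.71, 25.0, 13.9 and 19.8. All 5 F2 mixture libraries lay below the lowest of the other 15 (29.0), and the other 3 groups overlapped. Of all genes, 7.38% had F2 mixture wholly below F2 control and 5.44% had it wholly below F1 mixture. How many had it below all other 15 libraries was not counted. The aldh1a1 mean was 17.4 ± 6.72 in F2 mixture (SD, n = 5), against 45.6 ± 17.0 in F1 control, 48.7 ± 18.3 in F2 control and 65.6 ± 15.4 in F1 mixture.

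In F2, aldh1a1 fell by 1.46 ± 0.30 on the log2 scale (95% interval -2.09 to -0.84; limma adjusted p = 0.00187; exact permutation p = 0.00794) and was lower in 5 of 5 same-numbered pairs. Any pairing of the F2 groups, which did not overlap, would give 5 of 5. The F1 effect was 0.55 ± 0.30 (limma adjusted p = 0.438), and 0.82 without the 5 low-weight libraries (limma adjusted p = 0.0451). The difference between the effects was -2.02 ± 0.42 (limma adjusted p = 0.00385). A replicate block for the number of each library gave -2.07, which no longer passed (limma adjusted p = 0.0592), in a fit where F1 control and F1 mixture share only numbers 1 and 4. Of the 5 genes, dhrs3 and aldh1a1 had a called difference, against 20.1% of all genes (2052). That total was 257 with the replicate block, where dhrs3 kept its call, and 3864 with array weights. F2 control against F1 control was 0.10 ± 0.30 for aldh1a1 (limma adjusted p = 0.797), with a sign that turned without scaling (-0.15), and F2 mixture against F1 mixture was -1.92 ± 0.30 (limma adjusted p = 0.00139). Between the mixture generations aldh1a1 and bco2 were called, against 14.2% of all genes. For aldh1a1 the mixture groups did not overlap, which held for 5.44% of all genes in the same direction. The bco2 value, -0.90 ± 0.28 (limma adjusted p = 0.0394), lost its call in 14 of the 20 alternatives, 8 of them from leaving out 1 library (F1 mixture 1, 8, 9 or 13 or F2 mixture 1, 2, 3 or 5; limma adjusted p = 0.0512 to 0.115). The authors' deposited table marked aldh1a1 in F2 (log2 fold change -1.41, q = 0.000955) and not in F1 (0.53).

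**Figure D2:**
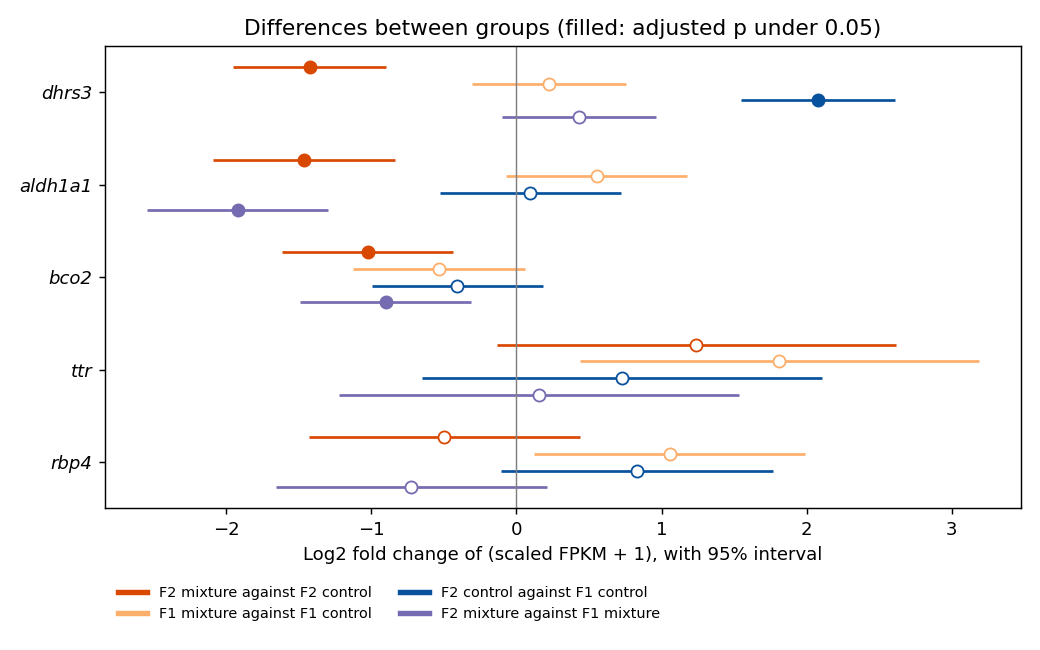
Log2 fold change of scaled FPKM + 1 (horizontal axis) with its 95% interval (lines) for the 5 genes (vertical axis) in 4 comparisons (colours). Points are filled where the adjusted p over all genes is under 0.05. The F2 mixture effect is filled for dhrs3 (-1.42), aldh1a1 (-1.46) and bco2 (-1.02). The filled control-generation value belongs to dhrs3 (2.08), and those between the mixture generations belong to aldh1a1 (-1.92) and bco2 (-0.90).

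Markers of other cells were measured beside these F2 differences. In F2, 0 of 19 hepatocyte markers tested rose and 5 fell, beside 11.3% and 14.5% of all genes. The median log2 fold change of that list, with ttr counted in it, was -0.51 beside -0.04 over all genes, in the direction of the 3 lower genes. Of 11 tested markers of stellate cells, which store vitamin A in mammals, 2 rose and 2 fell, and their summed level was 493 to 916 in control and 427 to 990 in mixture. Limma called 0 of 13 erythrocyte markers in F2, and 0 had an unadjusted p under 0.05, beside 3921 of all 10228 genes. The sum of the erythrocyte markers ran from 24409 to 68940 in control and from 5923 to 62769 in mixture. F2 mixture library 2 had the highest mean log2 level of erythrocyte markers of all libraries (8.12) and also the lowest aldh1a1 and bco2. Its dhrs3 level (8.21) was instead the highest of the F2 mixture libraries. With the erythrocyte mean as a covariate the F2 values were -1.36 for dhrs3, -1.54 for aldh1a1 and -1.14 for bco2. Without F2 mixture library 2 they were -1.59, -1.22 and -0.88, all still called. Among the other lists, 2 of 9 macrophage, 1 of 6 cholangiocyte and 2 of 5 endothelial markers fell, 1 endothelial marker rose, and the 1 pigment cell marker tested fell. No marker was at 0 in all libraries.

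Markers also moved between the control generations, where dhrs3 was higher in F2. There 7 of 19 hepatocyte markers were higher and 1 lower, and 5 of 11 stellate cell markers were higher and 3 lower. Of the 13 erythrocyte markers 5 were higher and 0 lower (median log2 difference 1.17), in a comparison with 55.9% of all genes called. The summed hepatocyte level was 5625 to 12095 in F1 control, below every F2 control library. With the erythrocyte mean as a covariate dhrs3 was higher by 1.87 in F2 control (limma adjusted p = 8.68e-05). For the F2 effect minus the F1 effect, 7 of 19 hepatocyte and 3 of 11 stellate cell markers had a called negative difference and none a positive one, beside 20.1% of all genes called in either direction. Limma called 0 of 13 erythrocyte markers there, and 3 had an unadjusted p under 0.05, beside 3593 of all 10228 genes. With the erythrocyte covariate the dhrs3 and aldh1a1 differences were -1.49 and -2.21, both called. The part of hepatocyte and stellate cell content in the results was not tested.

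The wider pathway was read from lists of 115 genes, of which 100 were in the tables and 68 were tested. In F2, 8 of the 68 rose and 19 fell, beside 11.3% of all genes that rose and 14.5% that fell. The share of the lists that rose was close to that of all genes, and the share that fell was above it. As the lists were chosen with earlier results of these data known, these shares are a description and not a test. The median log2 fold change was -0.24 beside -0.04 over all genes. Without the 5 genes described above, 8 of 63 rose and 16 fell (median -0.22). Here rose and fell compare mixture with control within F2. Between the control generations limma called 24 of the 68 higher and 14 lower in F2, beside 55.9% of all genes in either direction. Between the mixture generations it called 4 higher and 6 lower in F2, beside 14.2% of all genes. In F1, limma called 0 of the 68, while 10 of them and 1306 of all 10228 genes had an unadjusted p under 0.05. The F1 count over the lists was 8 with array weights and 17 without the 5 low-weight libraries. Without scaling 5 rose and 18 fell in F2, and after quantile normalization 6 rose and 18 fell. The median over all genes was then -0.10 and 0.02.

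Of 5 tested genes of retinoid carriage and uptake limma called 0 in F2, beside 25.7% of all genes. An unadjusted p under 0.05 was reached by 1 of them, beside 3921 of all 10228 genes. The carrier gene rbp5 differed by 0.84 ± 0.43 in F2 (limma adjusted p = 0.159). The authors' deposited table marked rbp5 as higher there (log2 fold change 1.04, q = 0.0345). Its mean was 10.4 in F2 control and 21.1 in F2 mixture, beside 63.1 in F1 control and 57.8 in F1 mixture. The retinol-uptake receptor gene stra6 was under the filter in all groups, with means of 0.16 to 0.46 FPKM.

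Beside 14.5% of all genes that fell and 11.3% that rose in F2, 3 of 7 tested genes of retinyl ester storage and release fell and none rose. They were the lipid-droplet hydrolase gene pnpla3 (-1.09 ± 0.29; limma adjusted p = 0.0107), the microsomal esterase gene aadac (-0.98 ± 0.28; limma adjusted p = 0.0142) and the lysosomal acid lipase gene lipa (-0.91 ± 0.27; limma adjusted p = 0.0183). Each had its highest group mean in F2 control, at 27.6 for pnpla3, 78.2 for aadac and 8.41 for lipa. Their F2 mixture means were 13.3, 40.5 and 4.06, beside 11.9, 30.0 and 4.25 in F1 control and 17.7, 27.3 and 4.31 in F1 mixture. All F2 control libraries of aadac (at least 62.0) lay above all others (at most 56.1). Between the control generations 5 of the 7 genes were called higher in F2 and 2 lower, beside 55.9% of all genes called. The pnpla3 range in F2 was 21.3 to 43.6 in control and 5.97 to 22.8 in mixture. With the replicate block and the erythrocyte covariate together pnpla3 was at -1.06 (limma adjusted p = 0.0586). Without F2 mixture library 4 lipa was at -0.78 (limma adjusted p = 0.061). The esterifying enzyme gene lrat was under the filter, at 0.23 to 0.51 FPKM in F2 control and 0.023 to 0.17 in F2 mixture, and was not tested.

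Of 22 tested retinol and retinal oxidoreductases, 2 rose and 8 fell in F2 (median -0.65), dhrs3 and aldh1a1 among them. Over all genes 11.3% rose and 14.5% fell (median -0.04), and 7.38% had F2 mixture wholly below F2 control. The retinol dehydrogenase-like sdr16c5 ranged from 15.7 to 26.8 in F2 control and from 4.01 to 11.7 in F2 mixture, groups that did not overlap (-1.30 ± 0.30; limma adjusted p = 0.00399). The short-chain dehydrogenase gene dhrs7 also fell without overlap (8.25 to 13.4 against 3.43 to 6.42; -1.001 ± 0.21; limma adjusted p = 0.00238). In the other direction rdh13, a mitochondrial retinal reductase gene in mammals, rose by 1.58 ± 0.40 (3.21 to 9.58 in control, 7.50 to 62.0 in mixture; limma adjusted p = 0.0071). The remaining named calls were less steady. rdh16 (1.26 ± 0.44; limma adjusted p = 0.0426) lost its call in 11 of 20 alternatives, among them leaving out F2 control library 1, 2, 3 or 5 or F2 mixture library 3, 4 or 5 (0.99 to 1.35). adh1c (-0.89 ± 0.31; limma adjusted p = 0.0411) lost it in 8, among them leaving out F2 control library 2, 3, 4 or 5 or F2 mixture library 2, 3 or 4 (-0.90 to -0.73). Both belong to families of similar genes, and how the authors' counting divided reads between such genes was not examined here, so their values are given as uncertain. The rdh16 mean was lowest in F2 control (9.45), beside 25.3 in F2 mixture, 39.5 in F1 control and 37.1 in F1 mixture.

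The step before and beside the 2 enzymes gave other values. The retinol dehydrogenase gene rdh10, which in mammals works opposite dhrs3, was at 3.20 ± 0.56 in F2 control and 2.38 ± 0.52 in F2 mixture (-0.32 ± 0.16; limma adjusted p = 0.142). Its F2 effect minus its F1 effect was -0.84 ± 0.22 (limma adjusted p = 0.0129; 0.243 with the replicate block and the erythrocyte covariate). The ratio of dhrs3 to rdh10 per library had medians of 1.64 and 1.46 in the F1 control and mixture groups and of 4.30 and 1.70 in those of F2, and in F2 control it ran from 4.00 to 6.21, above every F2 mixture library (1.37 to 3.84). The second retinal dehydrogenase gene aldh1a2 was at 1.44 ± 0.90 in F2 control and 1.16 ± 0.22 in F2 mixture (-0.11 ± 0.19; limma adjusted p = 0.707). Levels of aldh1a1 were a median of 40.2 times those of aldh1a2 in F2 control and 15.3 times in F2 mixture, with ranges of 21.0 to 60.5 and 5.64 to 29.9. The 3 retinoic acid-degrading genes in the tables were all under the filter, and cyp26a1 was listed at 0 in 14 of the 20 libraries.

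**Figure D3:**
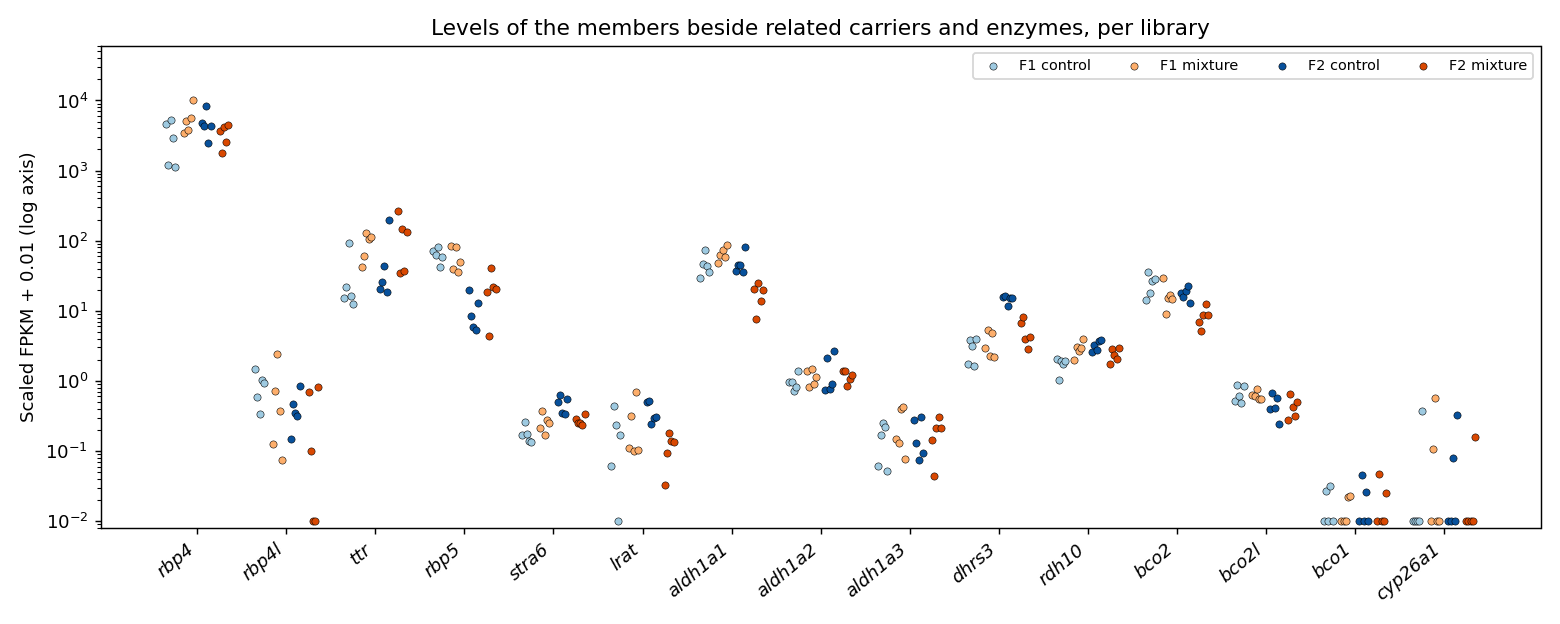
Scaled FPKM + 0.01 (log axis) of the 5 genes and 10 related carriers and enzymes (horizontal axis) in each library, coloured by group, so that a gene listed at 0 is drawn at the bottom. rbp4 sits highest in every group, aldh1a1 lies above aldh1a2 in every library, and bco1 and cyp26a1 lie at the bottom in most libraries.

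Of 3 tested genes of carotenoid uptake and cleavage, bco2 and the lipoprotein receptor gene scarb1 fell in F2, beside 14.5% of all genes. For 7.38% of all genes F2 mixture lay wholly below F2 control. The scarb1 receptor takes up carotenoids as well as cholesterol esters. The scarb1 mean was highest in F2 control (50.7), beside 20.5 in F2 mixture, 25.4 in F1 control and 25.7 in F1 mixture. F2 control against F1 control was 0.92 ± 0.24 (limma adjusted p = 0.00279). F2 mixture against F1 mixture was -0.32 ± 0.24 (limma adjusted p = 0.37). scarb1 ranged from 34.4 to 71.2 in F2 control and from 14.7 to 29.1 in F2 mixture, without overlap (-1.25 ± 0.24; limma adjusted p = 0.00107). Its F1 effect was -0.0037 ± 0.24 (limma adjusted p = 0.996), and the difference was -1.24 ± 0.33 (limma adjusted p = 0.0146; 0.294 in the highest of 29 alternatives).

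Of 14 tested retinoid receptors and partners, 3 rose and 2 fell in F2, beside 11.3% of all genes that rose and 14.5% that fell. The share that fell was close to that of all genes. The retinoid X receptor gene rxra rose by 0.69 ± 0.19 (limma adjusted p = 0.0104), from 2.74 to 4.23 in control to 3.05 to 8.37 in mixture, and the call held in all 20 alternatives. Its mean was 3.46 in F2 control and 6.42 in F2 mixture, beside 6.80 in F1 control and 7.42 in F1 mixture. For rxra, F2 control against F1 control was -0.82 ± 0.19 (limma adjusted p = 0.00104). The corepressor gene ncor1 was also higher (0.64 ± 0.21; limma adjusted p = 0.0327) and lost its call in 8 of 20 alternatives, among them leaving out F2 control library 1 or 3 or F2 mixture library 1, 4 or 5 (0.52 to 0.64). The lower calls of nrip1 (-0.57 ± 0.18) and nr2f6 (-0.58 ± 0.20) were lost in 9 and 12 of 20. Among these, 6 single libraries of the 10 ended each call, with nrip1 then at -0.55 to -0.48 and nr2f6 at -0.54 to -0.46, and nr2f6 had a limma adjusted p of 0.0657 with the replicate block. The F2 control mean was the highest of the 4 groups for both nrip1 (2.40) and nr2f6 (3.53). It was the lowest for rxra (3.46) and ncor1 (10.8). The retinoic acid receptor gene rara was at 6.14 ± 1.73 in F2 control and 5.87 ± 3.01 in F2 mixture (-0.14 ± 0.25; limma adjusted p = 0.721). Of 4 tested genes known as retinoic acid targets, dhrs3 was the one called in F2, beside 25.7% of all genes called in either direction.

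Thyroid hormone is the other cargo of transthyretin. Of 5 tested thyroid hormone genes 1 rose and 1 fell in F2, beside 11.3% and 14.5% of all genes. The transporter gene slco1c1 was higher in mixture (1.72 ± 0.51; 0.19 to 0.96 in control, 0.83 to 13.3 in mixture; limma adjusted p = 0.0187). It lost its call without F2 mixture library 3 (1.45; limma adjusted p = 0.0577) or 4 (1.35; limma adjusted p = 0.0668). In the authors' deposited table the slco1c1 mean was 18.5 and 13.3 in F1 control and mixture and 0.719 and 6.99 in those of F2. F2 control was thus the lowest of the 4 groups, and F2 mixture lay below both F1 groups. The receptor genes thra and thrb and the deiodinase genes dio1 and dio2 had group means under 1 FPKM and were not tested with limma, and dio3 was not analysed here. The authors' deposited table marked thra as higher in F2 (log2 fold change 1.63, q = 0.0029) and thrb as lower (-1.02, q = 0.011). Its F2 mean FPKM was 0.318 and 0.986 in control and mixture for thra, and 0.986 and 0.486 for thrb.

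Of 11 tested aldehyde dehydrogenase genes outside the retinal group, 2 rose and 3 fell in F2, beside 11.3% and 14.5% of all genes. The mitochondrial folate enzyme gene aldh1l2 rose (1.21 ± 0.28; limma adjusted p = 0.00437; 2.002 to 2.97 in control, 3.07 to 13.2 in mixture), in all 20 alternatives. The acetaldehyde-oxidising aldh2 fell by 0.77 ± 0.22 (limma adjusted p = 0.0147), aldh6a1 of valine breakdown by 0.88 ± 0.27 (limma adjusted p = 0.0234) and the fatty aldehyde enzyme gene aldh3a2 by 0.45 ± 0.13 (limma adjusted p = 0.0139). The proline synthesis gene aldh18a1 was higher by 0.50 ± 0.15 (limma adjusted p = 0.0205). Its means in the authors' deposited table were 8.48 and 5.95 in F1 control and mixture and 2.61 and 4.48 in those of F2. For aldh2 they were 85.0 and 93.4 in F1 control and mixture and 139.8 and 88.2 in those of F2. For aldh1l2 they were 10.8 and 10.8 in F1 and 2.67 and 9.04 in F2, with F2 control the lowest group. With the replicate block aldh18a1 and aldh3a2 did not pass (limma adjusted p = 0.0642 and 0.0556), and aldh6a1 lost its call in 6 of 20 alternatives, among them leaving out F2 control library 3 or 4 or F2 mixture library 2 or 5 (-0.81 to -0.71). aldh18a1 also lost it without F2 mixture library 5 (0.44), and aldh2 with the replicate block and the erythrocyte covariate together (-0.77; limma adjusted p = 0.0507).

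**Figure D4:**
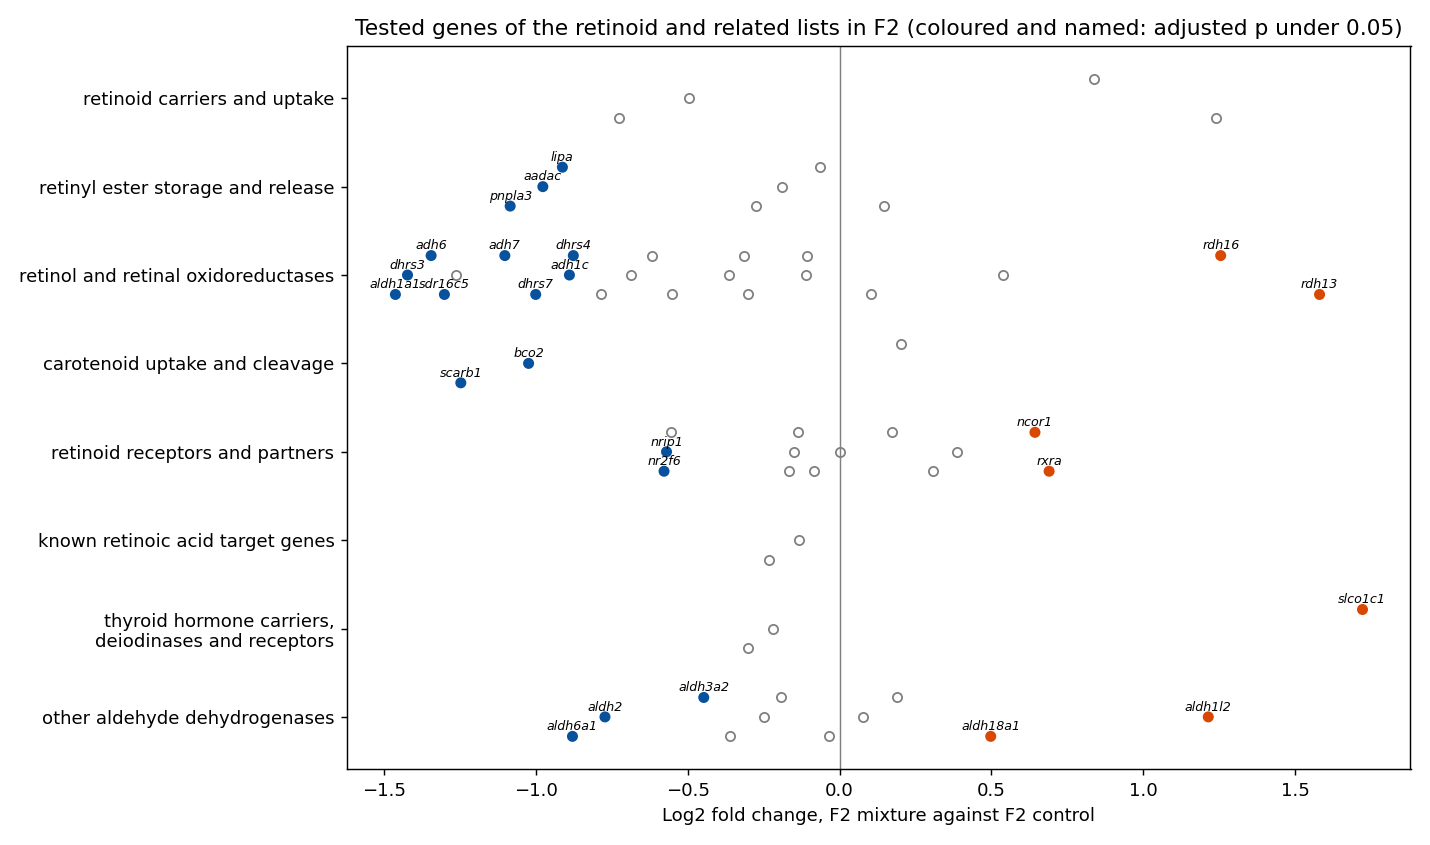
Log2 fold change of F2 mixture against F2 control (horizontal axis) for tested genes of the lists (rows), each drawn once under the first list that holds it. Named points passed the adjusted p of 0.05, orange higher and blue lower, and open points did not. The oxidoreductase row has 8 named points to the left and 2 to the right of 0, and the carrier row has none.

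Genes whose log2 level ran most like each of the 5 over the 20 libraries were found by Pearson's r among 10192 genes with a value in every library. The libraries share their groups and depth, so r is given as a description, and r of the deviations from the group means stands beside it. For dhrs3 they were the beta-catenin gene ctnnb1 (r = 0.972; 0.848 of the deviations), itm2a (0.962; 0.783) and lin7c (0.961; 0.776). Each had its highest group mean in F2 control, as dhrs3 did, a pattern that the choice by r favours. There itm2a averaged 196, against 16.4 in F1 control, 25.96 in F1 mixture and 45.5 in F2 mixture.

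For aldh1a1 they were the uric acid pathway gene urad (r = 0.888; 0.754 of the deviations), the flavin monooxygenase gene fmo2 (0.877; 0.552) and the peroxisomal fatty acid oxidation gene ehhadh (0.844; 0.650). Each had its lowest group mean in F2 mixture, as aldh1a1 did, which the choice by r again favours. The fmo2 mean was 20.3 there, against 51.4 in F2 control, 59.1 in F1 control and 89.9 in F1 mixture. For bco2 they were abhd12b (0.851; 0.646), gpr157 (0.839; 0.826) and the kynurenine pathway gene afmid (0.837; 0.664). For ttr they were the acyl-CoA synthetase gene acsl5 (0.811; 0.834), LOC100493854 (0.802; 0.670) and smim22 (0.796; 0.854). For rbp4 they were cnpy1 (0.927; 0.905), the sugar transporter gene slc50a1 (0.908; 0.898) and cnpy2 (0.895; 0.903).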

How the data were processed

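Liver RNA libraries (TruSeq Stranded mRNA kit, 75 bp reads, 15 mg of liver per replicate, per the labels' protocols) were processed by the authors with Trimmomatic 0.32.1, HISAT2, Cufflinks 0.0.7 and Cuffdiff 0.0.7, per the submitters' processing notes. The deposited tables held FPKM per gene with lower and upper limits for 20 libraries, and per generation a Cuffdiff table with log2 fold change, p-value and q-value, per the file headers. The authors' p-values and log2 values are quoted only as theirs. The authors' genome build was not given in the sources used here, but 20164 of 20372 named genes matched the UCB_Xtro_10.0 annotation at both ends, so coordinates are stated for that assembly, counted from 1. Lines without a gene name, 70 per library, (0.000624% to 0.00856% of summed FPKM), were left out. For F1 mixture 9 and 13 each file carried the other's number and was used for the sample that GEO lists it with.

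FPKM values not marked sound were set to missing, scaled per library by the median ratio over 6971 genes, and log2-transformed with a pseudocount of 1, so fold changes understate the change of low genes. The 10228 genes whose mean FPKM reached 1 and that had at least 3 sound values per group were tested with limma 3.58.1 in R 4.3.3 (4 group means, all 20 libraries, variance trend, two-sided, Benjamini-Hochberg, threshold 0.05). Single genes were also tested by exact permutation, two-sided. Fragment numbers took the deposited limits as 2 Poisson SD on each side. In F2 control library 5 the half-width was 3.71% for rbp4 (FPKM 4259) and 4.50% for ttr (FPKM 193). Counting error alone would narrow far more at the rbp4 level, so the fragment numbers are rough and not a measured depth. The limits do not cover the spread between libraries. The code was tested on simulated data.

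The 5 genes and the lists were chosen with earlier results of these data known. Genes named are the 5, called pathway genes by adjusted p (up to 4 per list and direction), a set of retinoid and thyroid genes in any case, and the 3 genes most like each of the 5. The carrier gene rbp5 was named in addition. For same-numbered F2 control and F2 mixture libraries 1 to 5 the deviations had r = 0.385, 0.369, 0.154, 0.104 and 0.169. Differently numbered F2 libraries ran from -0.479 (control 2 and mixture 1) to 0.167 (control 5 and mixture 3). Numbers 1 and 2 thus lay above that range, 3 and 4 within it and 5 barely above it. The F2 numbers were taken as pairs from these values and not from a label, and a pairing of numbers 3 to 5 was not shown. The 2 numbers shared in F1 had r = -0.0167 and -0.187. Alternatives were a pseudocount of 0.1, no filter, no scaling, quantile normalization, array weights, only the groups compared, a replicate block, an erythrocyte covariate, both together, and leaving out each library. In the comparisons between generations the replicate block joined all libraries of the same number, F1 with F2 and control with mixture. No label relates those libraries, so the block values there rest on numbers alone. Leaving out the 5 libraries of low weight was chosen after seeing the data. Values of 3 genes of the pathway lists are counted in the lists and neither drawn nor reported here.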

Additional observations from a re-analysis of the deposited data

Results flagged for a closer look

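In 4 of the 20 groups examined (5 genes in 4 groups), 1 library lay further from the nearest other than Dixon's 95% limit for 5 samples allows. The limit was applied to scaled FPKM and not to the log2 values that were tested. Chance flags about 1 in 20 groups where values are normally distributed, which was not checked here. The flagged values were dhrs3 in F2 control library 3, the lowest of its group (11.7 scaled FPKM), and aldh1a1 in F2 control library 5, the highest (80.6). The others were ttr in F1 control library 3, the highest (92.5), and ttr in F2 control library 5, the highest (197). F2 control library 5 was thus flagged for both aldh1a1 and ttr on the scale of scaled FPKM.

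The mixture effect differed between generations by limma's test of the difference (F2 effect minus F1 effect, log2) for dhrs3 (-1.65) and aldh1a1 (-2.02). It also did for 13 named pathway genes. The differences were negative for adh1c (-1.83), aldh2 (-0.96), aldh3a2 (-0.72), aldh6a1 (-1.35), pnpla3 (-1.61), rdh10 (-0.84), scarb1 (-1.24) and sdr16c5 (-1.96), and positive for aldh18a1 (0.95), aldh1l2 (1.30), ncor1 (1.01), rdh13 (1.70) and slco1c1 (2.30). All 13 lost the call in at least 1 of 29 alternatives, aldh1a1 lost it in 2 of 29, both with the replicate block (highest limma adjusted p = 0.0592), and the dhrs3 call held in all 29.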

How the results depend on the processing

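The F2 values of dhrs3, aldh1a1 and bco2 kept their call in all 20 alternatives each (-1.59 to -1.27, -1.61 to -1.22 and -1.20 to -0.87); for the other values below the cause was not tested. With the replicate block the aldh1a1 difference between generations was -2.07, and with the erythrocyte covariate added -2.23, neither called; the block changed no other call of the 5 genes except bco2 between the mixture generations. Without the low-weight libraries the F1 effects of aldh1a1 (0.82), bco2 (-0.89), ttr (2.41) and rbp4 (1.67) and the rbp4 difference (-1.93) were called, and the bco2 difference turned to 0.024; ttr in F1 was also called with array weights (2.13). Leaving out 1 library gave -1.82 to -1.27 for the rbp4 difference, 0.868 to 1.82 for ttr in F2 and -1.06 to 0.0097 for the ttr difference.

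Between control generations aldh1a1 turned to -0.15 without scaling, -0.0040 after quantile normalization, -0.099 with the block and -0.098 to 0.284 with 1 library left out; bco2 turned to 0.41 with block and covariate, and rbp4 to -0.52 after quantile normalization and -0.0021 with block and covariate (0.547 to 1.09 with 1 library left out). Between mixture generations ttr turned to -0.066 without scaling (-0.216 to 0.502 with 1 library left out), rbp4 was called after quantile normalization (-1.37), and bco2 lost its call without filter (-0.90), with array weights (-0.66), with only the groups compared (-0.90), with the block (-0.86), with block and covariate (-0.59), without the low-weight libraries (-0.49) and in the range -1.09 to -0.68 with 1 library left out. The alternative with only the groups compared is not applicable to the difference. Block values between control or mixture generations rest on library numbers alone and not on a known pairing.

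Counts of called genes moved over 1.5 times as follows. In F1, 0 became 5 without filter, 3 without scaling, 1129 with array weights, 29 with the block, 2 with the covariate, 37 with both, 2459 without the low-weight libraries and 0 to 24 with 1 library left out; over the pathway lists it became 8 with array weights, 1 with the block, 1 with both and 17 without the low-weight libraries. For the difference, 2052 became 3864, 257, 172 and 4229 (array weights, block, both, low-weight left out), and 18 list genes became 29, 2, 2 and 30. Between control generations, 5722 became 3390 and 38 list genes 21 with both. Between mixture generations, 1450 became 784 with array weights, 509 with only the groups compared, 198 with the block, 278 with both, 517 without the low-weight libraries and 778 to 1487 with 1 left out; 10 list genes became 6 without filter, then 4, 2, 1, 2 and 1 in that order, and 4 to 10 with 1 left out. F2 counts stayed within 1.5 times. Depth limits the genes under 1 FPKM, lrat and cyp26a1 among them.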
